A study of Mus musculus with 6 samples.

Results

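The H2 complex on mouse chromosome 17 is the major histocompatibility complex (MHC) of the mouse, and the 35 genes whose symbol starts with H2- among the 29199 genes of the count table are described here in regulatory T cells (Treg). They were chosen by symbol alone and split by name into 2 classical class I genes (H2-K1 and H2-D1), 21 nonclassical class I genes of the Q, T and M regions, and 10 class II genes. The remaining 2 rows fit no class by name. H2-K2 is a class I pseudogene not named for the Q, T or M regions, whose own pseudogenes H2-T-ps, H2-Q3 and H2-M6-ps are among the 21. H2-Ke6 encodes the hydroxysteroid dehydrogenase Hsd17b8, which is not an MHC molecule. After a filter on low counts, 27 of the 35 genes were tested.

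Splenic Treg of B6 Foxp3-Thy1.1 mice, whose Treg carry Thy1.1 as a reporter, were purified and expanded in culture with IL-2, TGF-β and, for the first 3 days, beads coated with antibodies to CD3 and CD28. They were injected into lethally irradiated B6 hosts together with B6 and semi-allogeneic B6D2F1 bone marrow and naive conventional CD4+ T cells (Tconv). The Tconv were either wild type (WT) or HP1α KO, that is, lacking the heterochromatin protein HP1α through germline deletion of a floxed Hp1a allele by CMV-cre on a mixed strain background. After 3 weeks the Treg were sorted again from the spleen, and total RNA was sequenced in 3 libraries of Treg with WT Tconv and 3 of Treg with HP1α KO Tconv. Treg were WT in both groups, so the comparison asks whether the MHC transcripts of the same Treg depended on the genotype of the Tconv injected with them. The final sort took CD4+CD45.1-CD45.2+Thy1.1+ cells positive for H-2Kb, the protein made from H2-K1 of the b haplotype, and negative for H-2Kd. The gate on H-2Kb can itself set the level of H2-K1. B6D2F1 cells carry both the b and the d haplotype, so the H-2Kb gate alone would keep them. The H-2Kd-negative and Thy1.1+ gates are set to leave them out, and how fully they did so was not tested. The sources do not say that each library came from a separate mouse, so the p-values measure only the spread between these samples, which may be technical.

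Class I molecules sit on nearly all nucleated cells and hold peptides from the cytosol for inspection by CD8+ T cells and natural killer cells. Each pairs an H2 heavy chain with β2-microglobulin, and its peptides are cut by the immunoproteasome and carried into the endoplasmic reticulum by the Tap1-Tap2 transporter. Class II molecules are αβ pairs (H2-Aa with H2-Ab1 as I-A, H2-Ea with H2-Eb1 as I-E) made mostly by B cells, dendritic cells and macrophages, and mouse T cells are known for making little of them.

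The library totals ran from 87421755 to 119078882 counts. The 10 T cell and Treg markers were Cd3d, Cd3e, Cd3g, Trac, Cd4, Foxp3, Il2ra, Ctla4, Ikzf2 and Tnfrsf18. They summed to between 6182 and 7179 CPM (counts per 1000000 of a scaled library total) in every library. A pair of libraries stood apart. In WT Tconv replicate 3, markers of red cells summed to 5623 CPM and those of neutrophils to 1856 CPM, against 374 to 683 CPM and 42.2 to 224 CPM in the other 5 libraries. In HP1α KO Tconv replicate 2, mitochondrial transcripts summed to 9453 CPM, against 25188 to 28596 CPM in the others, and Malat1, a nuclear noncoding RNA, was at 6610 CPM against 10535 to 15209 CPM.

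Across all 6 libraries, no H2 gene passed the test. The edgeR quasi-likelihood test gave 0 of 27 H2 genes an adjusted p-value under 0.05, as it did for all 18321 genes tested (0% called). At an unadjusted p under 0.05 it gave 2 of 27 H2 genes, H2-DMa and H2-Oa, against 14.5% of all genes. DESeq2 called 0 H2 genes, against 4.35% of the genes for which it gave an adjusted p. With limma-voom 0 H2 genes were called, and its share over all genes is not given here. The groups did not overlap for 2 of the 27 genes, again H2-DMa and H2-Oa and both with HP1α KO Tconv above WT Tconv. Among all genes this held for 23.0%, with HP1α KO Tconv above in 11.5% and below in 11.6%. Without HP1α KO Tconv replicate 2, H2-DMa alone of the H2 genes had an unadjusted edgeR p under 0.05, against 16.4% of all genes. The median log2 fold change (HP1α KO over WT Tconv) was 0.05 over the 27 genes and -0.01 over all genes, with 19 H2 genes above 0 and 8 below.

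**Figure D1:**
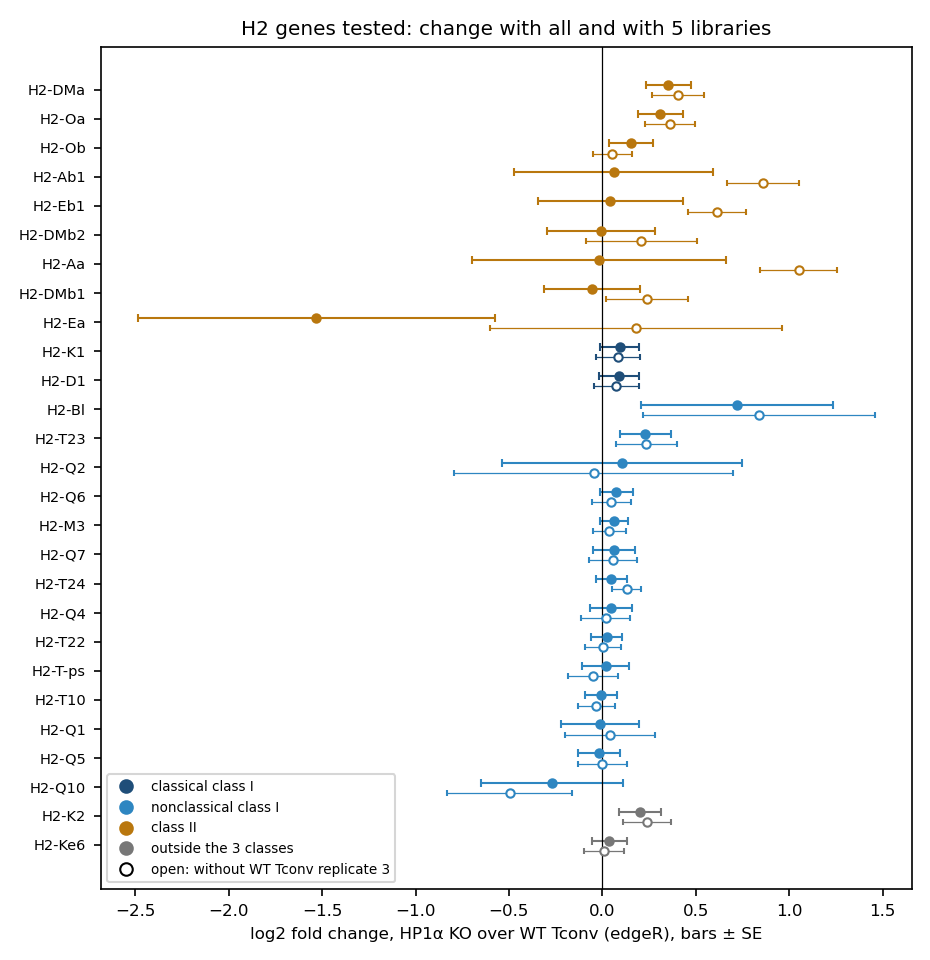
Log2 fold change of each of the 27 tested H2 genes, HP1α KO over WT Tconv from edgeR, with all 6 libraries (filled points) and without WT Tconv replicate 3 (open points), where bars are standard errors and colours are classes. H2-Aa, H2-Ab1 and H2-Eb1 lie near 0 with wide bars with all libraries and at 1.05, 0.86 and 0.61 without that replicate, while most class I genes lie close to 0 in both.

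H2-K1 and H2-D1 encode the classical class I heavy chains of the b haplotype, K and D. H2-K1 lies on chromosome 17 from 34214987 to 34219321 on the minus strand and H2-D1 from 35481691 to 35486475 on the plus strand (GRCm39). Their promoter windows from RefSeq (GRCm38.p6, 250 bases before to 50 after the annotated start) are shown because the text below follows the 2 genes moving together. H2-K1 has 2 such windows in that table, of which the first is shown at chr17:34000298-34000597, minus strand. That of H2-D1 is chr17:35262844-35263143, plus strand. Capitals mark matches, on either strand, to CCAAT, to TGACG, to GAANNGAAA (an interferon-response-like element), to GGGANTCCC (a κB-like element) and to CAACNGATG (the core of an X1 box).
H2-K1: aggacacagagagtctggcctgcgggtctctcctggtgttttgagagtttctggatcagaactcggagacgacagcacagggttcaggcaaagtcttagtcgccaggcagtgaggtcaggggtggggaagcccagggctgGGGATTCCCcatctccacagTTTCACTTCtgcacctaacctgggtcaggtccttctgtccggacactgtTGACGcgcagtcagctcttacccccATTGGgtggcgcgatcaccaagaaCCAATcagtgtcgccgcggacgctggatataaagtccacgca
H2-D1: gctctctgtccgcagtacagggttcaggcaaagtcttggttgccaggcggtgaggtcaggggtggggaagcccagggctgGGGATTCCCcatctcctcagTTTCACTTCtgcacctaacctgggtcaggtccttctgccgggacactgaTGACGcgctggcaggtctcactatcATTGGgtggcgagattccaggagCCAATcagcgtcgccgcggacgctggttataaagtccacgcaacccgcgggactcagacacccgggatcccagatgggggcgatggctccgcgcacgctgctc

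In both windows the matches stood in the same order, with the κB-like element first, the interferon-response-like element 20 bases after it, TGACG 49 bases after that and an inverted CCAAT a further 25 bases on. None of these matches overlapped another. The first base of the κB-like element was 110 bases before the annotated start of H2-K1 and 170 before that of H2-D1. Of the 35 H2 genes, 25 had a window in the table. GGGANTCCC was found in 4 of the 25 (H2-K1, H2-D1, H2-Q6 and H2-Q7) and in 0.767% of all 32851 windows. GAANNGAAA was found in 8 of the 25 and in 7.52% of all windows, TGACG in 8 and 20.8%, and CCAAT in 22 and 37.4%. The κB-like motif was shortened after a first search, so its share among H2 genes was not fixed beforehand. The 4 windows that hold it are alike in sequence around the match, so they are not 4 separate finds. A match of letters is a description and not evidence of binding.

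H2-K1 was at 3927, 4103 and 3929 CPM in Treg with WT Tconv replicates 1, 2 and 3, and at 4132, 4859 and 3766 CPM in Treg with HP1α KO Tconv. The HP1α KO Tconv group held both the highest and the lowest library. The means were 3986 CPM ± 101 (SD, n = 3) and 4252 CPM ± 556 (SD, n = 3), and the log2 fold change was 0.09 (standard error 0.104, edgeR adjusted p = 0.713).

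H2-D1 was at 2578, 2589 and 2510 CPM with WT Tconv and at 2721, 3092 and 2344 CPM with HP1α KO Tconv. It had the same order of HP1α KO Tconv libraries as H2-K1, and its groups overlapped too. Its log2 fold change was 0.09 (standard error 0.105, edgeR adjusted p = 0.736).

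H2-K1 and H2-D1 kept a nearly fixed ratio to each other while their sum varied. The ratio of H2-K1 to H2-D1 counts was between 1.52 and 1.61 in the 6 libraries. H2-K1 made up 41.1% to 42.3% of all class I counts and H2-D1 26.2% to 27.1%. The H2 genes as a whole took 0.915% to 1.21% of all counts in a library, with the lowest share in HP1α KO Tconv replicate 3 and the highest in HP1α KO Tconv replicate 2. Class I genes share sequence, which could move estimated counts between them. Windows of 100 exonic bases found on the same strand of another gene made up 2.03% of H2-K1 and 2.53% of H2-D1.

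**Figure D2:**
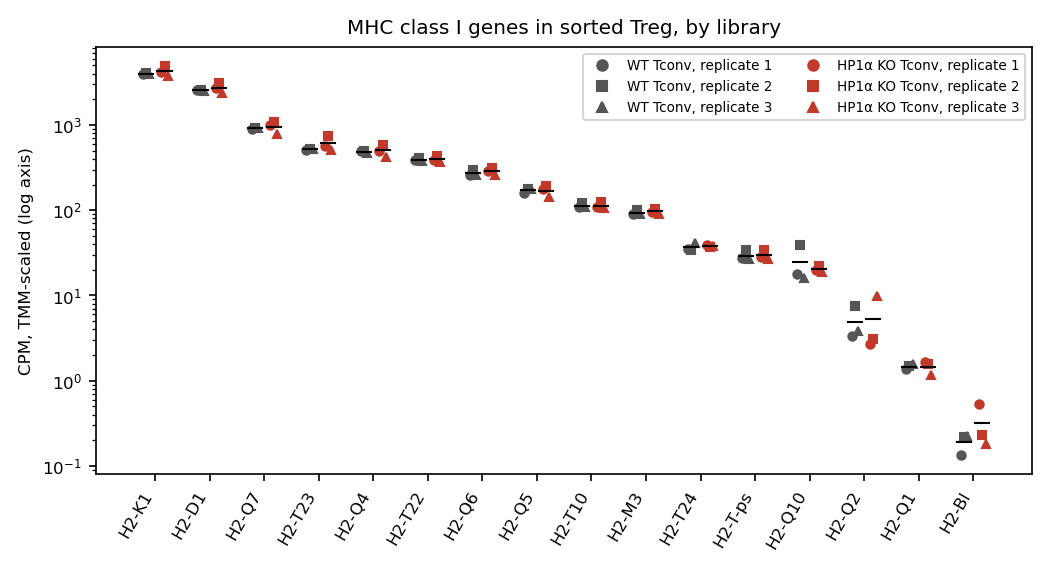
CPM on a log axis of the 16 tested class I genes in each library, ordered by mean level, with WT Tconv libraries in grey, HP1α KO Tconv libraries in red and black lines at group means. Levels run from H2-K1 at 3766 to 4859 CPM to H2-Bl under 1 CPM, the groups overlap for each of the 16 genes, and H2-Q10 and H2-Q2 show 1 or 2 libraries set apart.

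On a log scale, the tested nonclassical class I genes spanned the widest range of levels of any class. H2-Q7, which encodes the glycolipid-anchored molecule Qa-2, was at 908, 931 and 910 CPM with WT Tconv and at 993, 1082 and 793 CPM with HP1α KO Tconv. The HP1α KO Tconv libraries again lay on both sides of the WT Tconv libraries (log2 fold change 0.06, standard error 0.112, edgeR adjusted p = 0.829).

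H2-T23 encodes Qa-1, which presents a peptide from class I leader sequences to the inhibitory receptor NKG2A of natural killer and CD8+ T cells. Its levels were 503, 529 and 522 CPM with WT Tconv and 566, 749 and 505 CPM with HP1α KO Tconv. The highest was HP1α KO Tconv replicate 2, and replicate 3 of that group lay between the WT Tconv libraries. The log2 fold change was 0.23 (standard error 0.137, edgeR adjusted p = 0.493), and without HP1α KO Tconv replicate 2 it was 0.05. The share of H2-T23 in all class I counts was 6.43% in that replicate and 5.29% to 5.68% in the other 5 libraries.

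H2-Q4, a further Q region gene, was at 492, 501 and 469 CPM with WT Tconv and at 494, 587 and 427 CPM with HP1α KO Tconv. H2-T22, whose product is bound by some γδ T cell receptors and holds no peptide, was at 384, 411 and 380 CPM and at 391, 438 and 366 CPM. Both had HP1α KO Tconv replicate 2 as the highest library and replicate 3 as the lowest.

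H2-Q6, a close relative of H2-Q7, was at 261, 295 and 262 CPM with WT Tconv and at 291, 312 and 258 CPM with HP1α KO Tconv. H2-Q5 was at 161, 179 and 175 CPM and at 175, 193 and 142 CPM. In both genes the WT Tconv values lay inside the range of the HP1α KO Tconv values.

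H2-T10, like H2-T22 a ligand of γδ T cell receptors, was at 109, 121 and 109 CPM with WT Tconv and at 108, 124 and 105 CPM with HP1α KO Tconv. H2-M3, which presents peptides with an N-formyl group as bacteria and mitochondria make them, was at 89.1, 99.4 and 89.4 CPM and at 96.4, 103 and 91.0 CPM. Their log2 fold changes were -0.01 (standard error 0.0854) and 0.06 (standard error 0.076), the smallest standard error among the H2 genes being that of H2-M3. For 5 of these 8 genes the log2 fold change lay between 0 and 0.1, with H2-T23 above that range and H2-Q5 and H2-T10 below 0.

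Sequence is shared more widely among the Q genes than in H2-K1 or H2-D1. Of the 100-base windows of H2-Q5, 17.0% were found in another gene, and for H2-Q7, H2-Q10, H2-Q6 and H2-Q4 the shares were 9.85%, 9.50%, 9.05% and 8.13%. Values of single Q genes are therefore uncertain, and sums over a class are less touched. H2-Q4, H2-T22, H2-T23 and H2-T10 also overlap annotated genes on the other strand over 16.6%, 29.8%, 11.9% and 27.1% of their exonic bases. For H2-K1 and H2-D1 that share was 26.8% and 24.2%, by annotated genes whose counts were not analysed here. The library kit keeps the strand of the RNA, and whether the counting used it is not given in the sources used here.

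Of the 16 tested class I genes, 8 were highest in HP1α KO Tconv replicate 2 and lowest in replicate 3. The class I sum was 9497, 9876 and 9445 CPM with WT Tconv and 10060, 11636 and 8893 CPM with HP1α KO Tconv. The HP1α KO Tconv group had the highest and the lowest sum, and its SD was 1377 CPM against 236 CPM with WT Tconv (n = 3 each). HP1α KO Tconv replicate 2 was the highest library for 10 of the 16 tested class I genes, against 21.9% of all genes. The lowest library was HP1α KO Tconv replicate 3 for 9 of the 16, against 19.7% of all genes. The difference of the mean sums (HP1α KO minus WT) was 590.4 CPM with all libraries and -129.6 CPM without HP1α KO Tconv replicate 2, the library low in mitochondrial transcripts and Malat1. It was 1242 CPM without HP1α KO Tconv replicate 3. Whether the low mitochondrial and Malat1 levels had a part in the class I level was not tested.

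Of the remaining tested nonclassical genes, H2-T24 and H2-T-ps (named H2-T11-ps in GENCODE M39) ranged from 26.5 to 40.9 CPM. H2-Q1 lay between 1.16 and 1.66 CPM and H2-Bl (H2-T13 in GENCODE M39) between 0.135 and 0.539 CPM. H2-Q10 encodes a class I molecule that the liver secretes. It was at 39.6 CPM in WT Tconv replicate 2 and at 16.2 to 22.4 CPM in the other 5 libraries. H2-Q2 was at 7.42 CPM in WT Tconv replicate 2 and 9.94 CPM in HP1α KO Tconv replicate 3, and at 2.67 to 3.79 CPM in the other 4. Neither followed the groups, and without WT Tconv replicate 2 the log2 fold change of H2-Q10 went from -0.27 to 0.27.

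The 8 H2 genes below the filter were H2-Eb2 of class II and 7 nonclassical class I genes. H2-Eb2 had 3 to 30 counts per library and 81 in all. H2-M5, H2-M2, H2-T3, H2-Q3, H2-M6-ps, H2-M10.2 and H2-M11 had totals of 15, 12, 10, 6, 5, 3 and 1 counts over the 6 libraries. All 10 counts of H2-T3, which encodes the thymus leukemia antigen, came from WT Tconv replicate 3. A level of 3 counts corresponded to 0.0256 to 0.0340 CPM. H2-K2 was at 39.8, 40.5 and 43.1 CPM with WT Tconv and 44.8, 55.8 and 41.4 CPM with HP1α KO Tconv (edgeR adjusted p = 0.452). H2-Ke6 lay between 32.9 and 39.8 CPM, and a gene read in the same direction, Gm20427, covers 86.5% of its exonic bases.

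On a scale of CPM per kilobase of exon, averaged over the 6 libraries, the classical class I genes were far above the class II genes. H2-K1 was at 1293 and H2-D1 at 882 CPM per kilobase, followed by H2-Q7 at 219, H2-T23 at 164 and H2-Q4 at 141. Among class II genes the highest was H2-DMa at 7.34, and H2-Eb1, H2-Ab1 and H2-Aa were at 2.82, 2.47 and 1.46 CPM per kilobase.

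The chains of the presenting molecules, H2-Aa, H2-Ab1, H2-Eb1 and H2-Ea, were highest in WT Tconv replicate 3, as were H2-DMb1 and H2-DMb2. The chains of the peptide editor H2-DM and of its inhibitor H2-DO included H2-DMa and H2-Oa, the 2 H2 genes whose groups did not overlap. In bulk RNA, fewer cells of a type and less RNA per cell cannot be told apart, and this holds for every class II value here.

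H2-Aa lies on chromosome 17 from 34493404 to 34506798 (minus strand) and H2-Eb1 from 34504236 to 34535648 (plus strand), in GRCm39, and their ends overlap on opposite strands over 2.75% of the exonic bases of H2-Aa. H2-Ab1 spans 34476663 to 34488393 (plus strand). No 100-base window of these 3 genes occurs in another gene. The RefSeq windows of H2-Aa (chr17:34287774-34288073, minus strand) and H2-Eb1 (chr17:34305617-34305916, plus strand) in GRCm38.p6 follow, with the same motifs in capitals, because these genes moved together across libraries. H2-Ab1 has no window in that table.
H2-Aa: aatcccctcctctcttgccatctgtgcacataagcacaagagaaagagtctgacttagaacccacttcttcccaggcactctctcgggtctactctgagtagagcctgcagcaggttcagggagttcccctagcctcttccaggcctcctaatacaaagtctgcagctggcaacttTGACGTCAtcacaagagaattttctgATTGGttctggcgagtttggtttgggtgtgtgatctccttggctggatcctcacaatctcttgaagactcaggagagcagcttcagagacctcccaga
H2-Eb1: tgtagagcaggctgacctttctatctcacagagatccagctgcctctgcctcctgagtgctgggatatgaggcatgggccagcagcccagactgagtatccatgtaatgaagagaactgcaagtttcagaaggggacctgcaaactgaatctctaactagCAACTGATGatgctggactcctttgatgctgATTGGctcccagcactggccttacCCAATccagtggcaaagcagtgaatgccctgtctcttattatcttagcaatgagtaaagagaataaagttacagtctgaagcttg

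H2-Aa holds TGACG on both strands in one run, TGACGTCA, where the 2 matches overlap, followed by an inverted CCAAT whose first base is 48 bases before the start. Its window has no match to GAANNGAAA or GGGANTCCC. H2-Eb1 holds CAACTGATG, an inverted CCAAT 31 bases after it and a CCAAT on the plus strand. CAACNGATG was found in H2-Eb1 and H2-Eb2 of the 25 H2 genes and in 0.566% of all windows.

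H2-Aa was at 3.66, 2.37 and 12.9 CPM with WT Tconv and at 6.42, 5.97 and 6.34 CPM with HP1α KO Tconv. The HP1α KO Tconv libraries lay close together, above WT Tconv replicates 1 and 2 and below replicate 3. The log2 fold change was -0.02 (standard error 0.68, edgeR adjusted p = 0.994).

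H2-Ab1, its β chain partner, was at 3.75, 3.396 and 11.5 CPM with WT Tconv and at 6.66, 7.56 and 5.19 CPM with HP1α KO Tconv. The order of the groups was that of H2-Aa, with WT Tconv replicate 3 on top. The log2 fold change was 0.06 (standard error 0.533, edgeR adjusted p = 0.970).

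H2-Eb1, the β chain of I-E, was at 4.80, 4.92 and 11.9 CPM with WT Tconv and at 7.83, 8.06 and 6.39 CPM with HP1α KO Tconv. Again a single WT Tconv library lay above the HP1α KO Tconv group and 2 lay below it. The log2 fold change was 0.04 (standard error 0.388, edgeR adjusted p = 0.972).

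H2-Ea encodes the α chain of I-E. The b haplotype of B6 carries a promoter deletion that silences it, whereas the d haplotype of DBA/2, carried by B6D2F1 marrow, transcribes it. H2-Ea had 6, 13 and 90 counts with WT Tconv and 5, 10 and 16 counts with HP1α KO Tconv, out of totals of 87421755 counts or more. WT Tconv replicate 3 stood far above the other 5 libraries. The log2 fold change was -1.53 (standard error 0.957, edgeR adjusted p = 0.516), and 0.18 without that replicate.

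**Figure D3:**
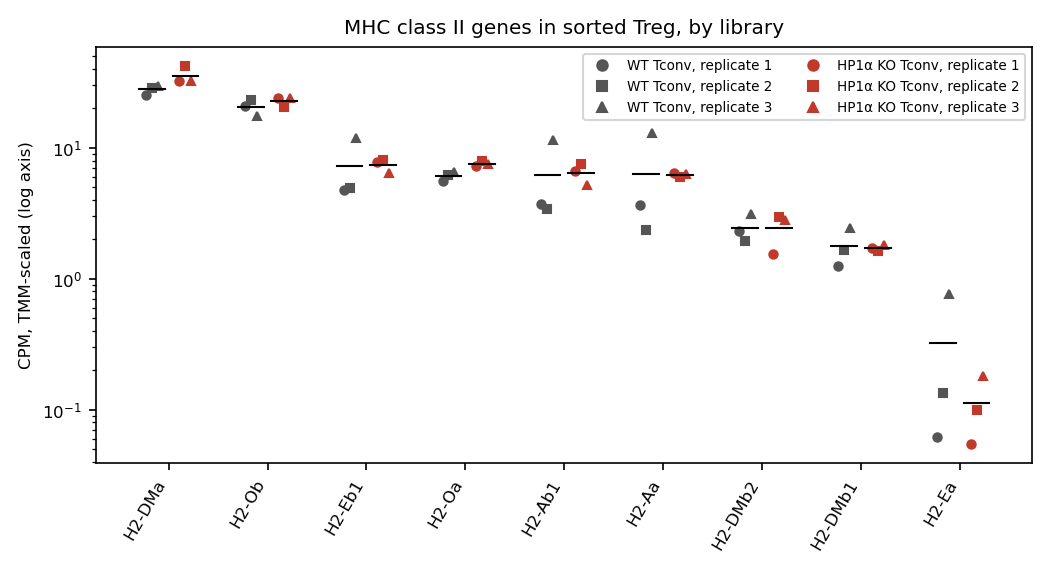
CPM on a log axis of the 9 tested class II genes in each library, ordered by mean level, with WT Tconv libraries in grey, HP1α KO Tconv libraries in red and black lines at group means. For H2-Aa, H2-Ab1, H2-Eb1 and H2-Ea the grey triangle of WT Tconv replicate 3 is highest and the other 2 grey points are lower, while for H2-DMa and H2-Oa all red points lie above all grey ones.

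The sum of H2-Aa, H2-Ab1 and H2-Eb1 was 12.2, 10.7 and 36.3 CPM with WT Tconv and 20.9, 21.6 and 17.9 CPM with HP1α KO Tconv. The ratio of the group means (HP1α KO over WT) was 1.02 with all libraries and 1.76 without WT Tconv replicate 3. WT Tconv replicate 3 was the highest library for 6 of the 9 tested class II genes, against 20.0% of all genes.

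Without WT Tconv replicate 3, the HP1α KO Tconv libraries lay above the remaining WT Tconv libraries for 5 of the 9 class II genes (H2-Aa, H2-Ab1, H2-Eb1, H2-DMa and H2-Oa), against 16.2% of all genes. The same 5 were the H2 genes with an unadjusted edgeR p under 0.05 in that fit, where 11.2% of all genes had one (5.52% in the higher direction). edgeR adjusted no H2 gene to under 0.05 there, and no other gene either, with an adjusted p of 0.380 for H2-Aa, H2-Ab1 and H2-Eb1. DESeq2 on the same 5 libraries, an alternative chosen after seeing the data, called 3 H2 genes, against 1.35% of all genes it tested and 0.521% as higher. These were H2-Aa with a log2 fold change of 1.05 (standard error 0.219, DESeq2 adjusted p = 0.00109), H2-Ab1 with 0.85 (standard error 0.212, adjusted p = 0.0120) and H2-Eb1 with 0.61 (standard error 0.173, adjusted p = 0.0400). The difference thus depended on 1 library and on the tool. The library left out was the highest for H2-Aa, H2-Ab1 and H2-Eb1, so leaving it out lowers their WT Tconv level. It was the highest for 20.0% of all genes, so the share of 16.2% is not a like-for-like background. Of the class I genes, 0 of 2 classical and 1 of 14 nonclassical ones had HP1α KO Tconv above without that library.

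Marker genes of other cells moved with the class II genes in WT Tconv replicate 3. That library was highest for all 10 macrophage or monocyte markers, all 8 neutrophil markers, all 7 red cell markers, 6 of 8 B cell markers and 3 of 8 dendritic cell markers. The macrophage or monocyte list summed to 204 CPM there, against 17.5 to 55.6 CPM in the other libraries, and the B cell list to 28.6 CPM against 16.6 to 22.8 CPM. Of the macrophage or monocyte sum, Lyz2 alone gave 168 CPM there and 7.36 to 38.6 CPM in the other libraries. Ms4a1 of B cells was at 2.52 CPM there and at no more than 0.634 CPM elsewhere. Itgax of dendritic cells was at 2.40 CPM against at most 0.668 CPM. No B cell marker was at 0 in that library. Cd209a and Siglech of the dendritic cell list were, but they had at most 3 and 7 counts in any library.

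Markers of some other cells were also above WT Tconv replicates 1 and 2 in the HP1α KO Tconv libraries. All 3 HP1α KO Tconv libraries lay above both for 4 of 10 macrophage or monocyte markers (Adgre1, C1qb, C1qc and Ly6c2), 2 of 8 B cell markers, 0 of 8 dendritic cell markers and 0 of 8 neutrophil markers, against 16.2% of all genes. These 4 macrophage or monocyte genes were highest in WT Tconv replicate 3, as were H2-Aa, H2-Ab1 and H2-Eb1. C1qb, a chain of the complement component C1q, was at 0.229, 0.342 and 1.25 CPM with WT Tconv and at 0.671, 0.621 and 0.680 CPM with HP1α KO Tconv. The part of these cells in the class II level was not tested.

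Without WT Tconv replicate 3 the ratio of means (HP1α KO over WT) was 1.76 for the sum of H2-Aa, H2-Ab1 and H2-Eb1 and 1.29 for the sum of all 10 class II genes. It was 2.32 for the neutrophil list, 2.01 for macrophages or monocytes, 1.61 for plasma cells, 1.15 for B cells and 0.741 for dendritic cells. The neutrophil list summed to 99.4 and 42.2 CPM in WT Tconv replicates 1 and 2 and to 192, 77.1 and 224 CPM with HP1α KO Tconv. The plasma cell list summed to 1.60 and 0.766 CPM and to 3.54, 0.931 and 1.26 CPM, where Jchain gave 2.88 CPM of the 3.54 CPM. Both lists thus overlapped between the groups. The red cell list summed to 381 and 379 CPM in WT Tconv replicates 1 and 2 and to 652, 374 and 683 CPM with HP1α KO Tconv. The B cell and dendritic cell ratios rest mostly on 1 gene each. Cd79b gave 13.5 to 18.8 CPM of B cell sums of 16.6 to 28.6 CPM, and Zbtb46 gave 7.01 to 20.2 CPM of dendritic cell sums of 8.63 to 23.9 CPM. Of the macrophage or monocyte sums, Lyz2 gave 13.4 and 7.36 CPM in WT Tconv replicates 1 and 2. With HP1α KO Tconv it gave 31.4, 13.0 and 38.6 CPM, so that ratio too rests largely on 1 gene. Itgax was at 0.239 and 0.155 CPM in WT Tconv replicates 1 and 2 and at 0.649, 0.220 and 0.668 CPM with HP1α KO Tconv, so its groups overlapped by 1 library there. Of these 5 libraries HP1α KO Tconv replicate 2 had the highest sum of H2-Aa, H2-Ab1 and H2-Eb1, while its macrophage or monocyte list, at 24.8 CPM, lay between WT Tconv replicates 1 and 2, at 25.3 and 17.5 CPM. HP1α KO Tconv replicates 1 and 3 had sums of 48.7 and 55.6 CPM. Cd209a and Clec9a of the dendritic cell list and Fcer2a of the B cell list had 0 counts in HP1α KO Tconv replicate 2. In WT Tconv replicate 2 these genes, Clec10a and Cr2 had 0 counts, and in WT Tconv replicate 1 Cd209a and Flt3 did. Clec10a and Siglech had 0 counts in HP1α KO Tconv replicate 1, and no gene of these lists had 0 counts in replicate 3 of that group.

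**Figure D4:**
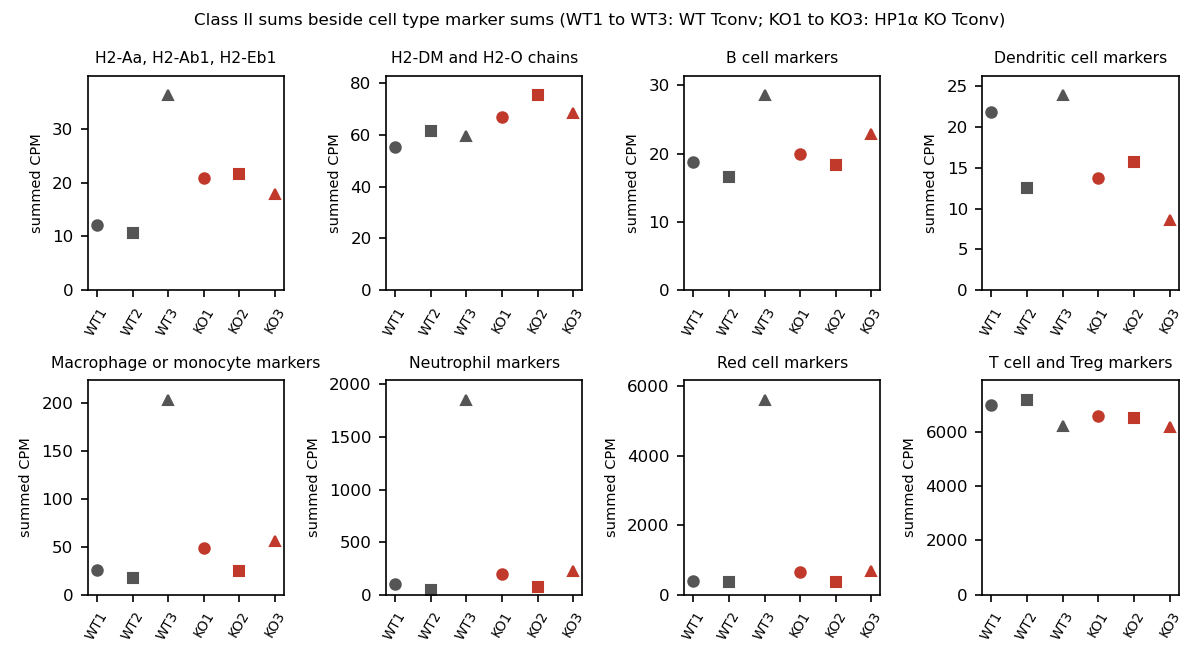
Summed CPM in each library of H2-Aa, H2-Ab1 and H2-Eb1, of the H2-DM and H2-DO chains, and of 6 marker lists, with WT Tconv libraries in grey and HP1α KO Tconv libraries in red on axes that start at 0. WT Tconv replicate 3 is highest for the presenting chains and for each list of other cells, and the H2-DM and H2-DO sum is higher in all 3 HP1α KO Tconv libraries than in any WT Tconv library.

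H2-DM takes the placeholder peptide CLIP out of newly made class II molecules and lets other peptides bind. H2-DMa, its α chain, was at 25.3, 28.6 and 29.8 CPM with WT Tconv and at 32.5, 42.2 and 32.2 CPM with HP1α KO Tconv. All HP1α KO Tconv libraries lay above all WT Tconv libraries. The log2 fold change was 0.35 ± 0.121 (standard error), with an unadjusted p of 0.0189 and an adjusted p of 0.257 by edgeR (DESeq2 adjusted p = 0.109). It was 0.40 without WT Tconv replicate 3 and 0.21 without HP1α KO Tconv replicate 2. H2-DMa overlaps Brd2, a gene with 28565 to 41055 counts per library, on the other strand over 11.8% of its exonic bases.

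The H2-DM β chains were lower. H2-DMb1 was at 1.26, 1.66 and 2.44 CPM with WT Tconv and at 1.72, 1.63 and 1.81 CPM with HP1α KO Tconv. H2-DMb2 was at 2.31, 1.94 and 3.14 CPM and at 1.55, 2.98 and 2.82 CPM. Both overlapped between groups, with log2 fold changes of -0.06 and -0.01, and both were highest in WT Tconv replicate 3. They share 11.3% and 8.72% of their 100-base windows with another gene, and 17.0% of the exonic bases of H2-DMb1 lie under an annotated gene of the other strand.

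H2-DO, the pair of H2-Oa and H2-Ob, holds H2-DM in check and is known mainly from B cells. H2-Oa was at 5.56, 6.22 and 6.57 CPM with WT Tconv and at 7.204, 7.997 and 7.53 CPM with HP1α KO Tconv. The groups did not overlap, and the log2 fold change was 0.31 ± 0.120 (standard error), with an unadjusted p of 0.0319 and an adjusted p of 0.297 by edgeR (DESeq2 adjusted p = 0.221). BC051537, a gene with 5 to 24 counts per library, lies on the other strand over 25.9% of the exonic bases of H2-Oa. H2-Ob was at 21.0, 23.1 and 17.6 CPM with WT Tconv and at 23.9, 20.5 and 24.1 CPM with HP1α KO Tconv, so its groups overlapped (log2 fold change 0.15, standard error 0.119, edgeR adjusted p = 0.589). Without WT Tconv replicate 3 the log2 fold change was 0.05. H2-Ob was lowest in WT Tconv replicate 3, where the presenting chains were highest.

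The summed H2-DM and H2-DO chains were at 55.4, 61.5 and 59.6 CPM with WT Tconv and at 66.9, 75.3 and 68.5 CPM with HP1α KO Tconv. The ratio of means was 1.19 with all libraries and 1.20 without WT Tconv replicate 3. The mean sum was 58.8 CPM with WT Tconv and 70.2 CPM with HP1α KO Tconv. H2-DMa alone had means of 27.9 and 35.6 CPM, so the difference of the sums rests largely on that 1 gene. The groups overlapped for H2-DMb1, H2-DMb2 and H2-Ob. H2-DMa had the highest CPM of the 5 chains in every library, and H2-Ob the second highest.

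Other genes of the pathways were read from the same fit. Of 9 genes of class I assembly, 2 had an unadjusted edgeR p under 0.05, both higher with HP1α KO Tconv, against 6.98% of all genes. They were Tap1 and Tap2, which form the peptide transporter. Tap1 was at 456, 473 and 473 CPM with WT Tconv and at 522, 633 and 496 CPM with HP1α KO Tconv. Tap2 was at 267, 297 and 310 CPM and at 328, 337 and 320 CPM. The groups did not overlap for either gene, with log2 fold changes of 0.24 (standard error 0.0970, edgeR adjusted p = 0.324) and 0.18 (standard error 0.0744, adjusted p = 0.333). Without HP1α KO Tconv replicate 2 these were 0.12 (edgeR unadjusted p = 0.0627) and 0.16 (edgeR unadjusted p = 0.0659), so neither stayed under 0.05.

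B2m, the light chain of every class I molecule, was at 3019, 3062 and 3097 CPM with WT Tconv and at 3108, 3360 and 3091 CPM with HP1α KO Tconv. Its groups overlapped by 1 library, and its log2 fold change was 0.06 (standard error 0.0742, edgeR adjusted p = 0.747). Of the 9 genes the groups did not overlap for 4, of which 3 had HP1α KO Tconv above and 1, the chaperone Canx, below, where 11.5% of all genes had HP1α KO Tconv above and 11.6% below. The median log2 fold change of the 9 was 0.09.

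Of the 5 immunoproteasome genes, 2 had an unadjusted p under 0.05 and 3 had groups that did not overlap, all higher with HP1α KO Tconv, against 6.98% and 11.5% of all genes in that direction. Psme1, a subunit of the PA28 activator, was at 234, 239 and 248 CPM with WT Tconv and at 271, 306 and 273 CPM with HP1α KO Tconv (log2 fold change 0.24, standard error 0.0717, edgeR adjusted p = 0.230). Psmb10, a catalytic subunit, was at 114, 120 and 120 CPM and at 139, 181 and 131 CPM (log2 fold change 0.35, standard error 0.119, edgeR adjusted p = 0.256). Without HP1α KO Tconv replicate 2 the log2 fold change was 0.18 for Psme1 and 0.20 for Psmb10. The median over the 5 genes was 0.19 against -0.01 over all genes. None passed adjustment in edgeR, which called 0% of all genes, or in DESeq2, which called 4.35% of those it adjusted. HP1α KO Tconv replicate 2 was the highest library for each of these 4 genes and for B2m.

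**Figure D5:**
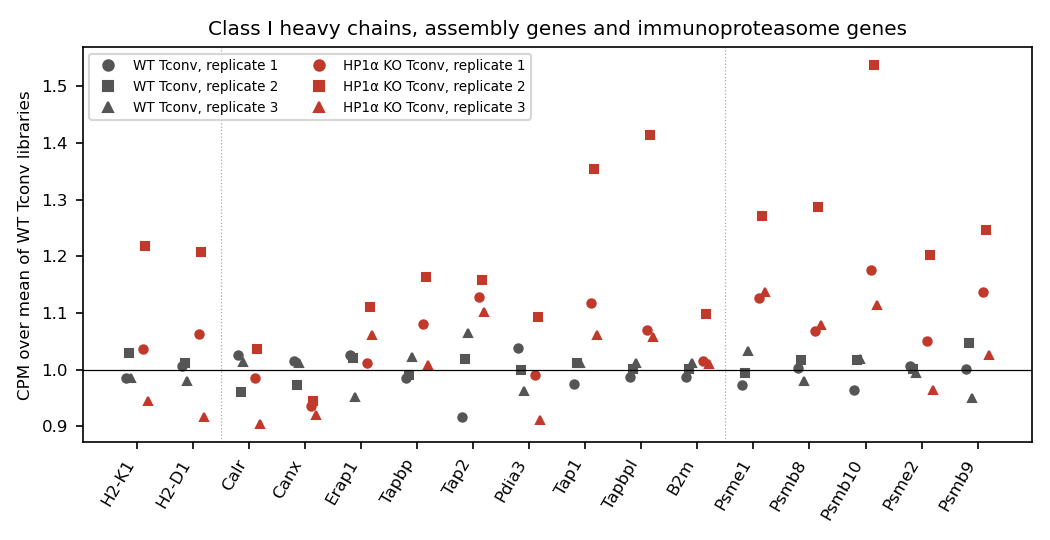
CPM of each library divided by the mean of the WT Tconv libraries for H2-K1, H2-D1, the 9 class I assembly genes and the 5 immunoproteasome genes, with dotted lines between the lists and the horizontal line at 1. HP1α KO Tconv replicate 2 (red square) is the highest point for Tap1, Tap2, Psme1 and Psmb10, whose red points all lie above the grey ones, whereas for H2-K1 and H2-D1 the red triangle of replicate 3 lies below all grey points.

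Transcription of class I genes is driven by Nlrc5 and that of class II genes by Ciita, each acting on a complex of Rfx and Nfy proteins and Creb1 at the promoter. Nlrc5 was at 950, 1083 and 1006 CPM with WT Tconv and at 1134, 1114 and 1063 CPM with HP1α KO Tconv. Only HP1α KO Tconv replicate 3 fell within the WT Tconv range (log2 fold change 0.12, standard error 0.0763, edgeR adjusted p = 0.504). Ciita was at 1.39, 1.12 and 2.88 CPM and at 2.62, 2.04 and 2.16 CPM, which is the order of groups seen for H2-Aa. Its log2 fold change was 0.34 (standard error 0.348, edgeR adjusted p = 0.690) and 0.86 without WT Tconv replicate 3 (standard error 0.225, edgeR adjusted p = 0.380).

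Of the 12 genes of MHC transcription, Rfxank alone had an unadjusted p under 0.05, against 14.5% of all genes. It was at 29.0, 29.4 and 26.7 CPM with WT Tconv and at 31.3, 35.1 and 30.8 CPM with HP1α KO Tconv (log2 fold change 0.19, standard error 0.0818, edgeR adjusted p = 0.342). Its unadjusted edgeR p was 0.120 without HP1α KO Tconv replicate 2 and 0.140 without WT Tconv replicate 3. Of the 12 genes of the interferon-γ receptor and response, 0 had an unadjusted p under 0.05 and all groups overlapped, where 14.5% of all genes had such a p and 23.0% had groups apart. Their median log2 fold change was -0.02.

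Among 6 genes of class II assembly and peptide loading, 0 had an unadjusted p under 0.05 and all groups overlapped, where 14.5% of all genes had such a p and 23.0% had groups that did not overlap. Cd74, the invariant chain that escorts class II molecules, was at 216, 197 and 261 CPM with WT Tconv and at 227, 283 and 151 CPM with HP1α KO Tconv. The lowest library was HP1α KO Tconv replicate 3 and the highest replicate 2 (log2 fold change -0.03, standard error 0.248, edgeR adjusted p = 0.973). The counts of H2-Aa were 0.0120 to 0.0496 times those of Cd74, with the highest ratio in WT Tconv replicate 3 and the lowest in WT Tconv replicate 2.

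Of 11 MHC-like genes outside the complex, 8 were tested and 1, Fcgrt, had an unadjusted p under 0.05, against 14.5% of all genes. Fcgrt, the heavy chain of the neonatal Fc receptor, was at 0.343, 0.580 and 0.718 CPM with WT Tconv and at 1.04, 0.791 and 1.33 CPM with HP1α KO Tconv (log2 fold change 0.94, standard error 0.336, edgeR adjusted p = 0.270). In all 6 lists together, 6 of 52 tested genes had an unadjusted edgeR p under 0.05, against 14.5% of all genes. By edgeR 0 had an adjusted p under 0.05, against 0% of all genes. By DESeq2 also 0 had one, against 4.35% of the genes for which it gave an adjusted p.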

How the data were processed

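Total RNA of sorted Treg was sequenced in 6 libraries, and the groups follow the labels. The deposited table holds 1 estimated count for each gene and library, as whole numbers with no normalization. Per the study's methods, the authors used the nf-core pipeline, in which trimmed reads go through STAR on GRCm39 with an Ensembl annotation and Salmon makes the estimates, which can divide reads between near-identical H2 genes. The libraries were made with a stranded total RNA kit, and the strand setting of the counting is not given in the sources used here.

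The quasi-likelihood test of edgeR 4.0.16 (R 4.3.3, TMM factors, filterByExpr, robust, group as the only term) was fitted to all genes, which kept 18321 of 29199, with Benjamini-Hochberg adjustment over them and a threshold of 0.05. Standard errors are the size of the log2 fold change divided by the root of its F value. CPM are counts per 1000000 of the TMM-scaled total of the genes kept by the filter. H2 genes, pathway lists, marker lists and alternatives were chosen with earlier results of these data known. Genes with values are all tested H2 genes, in every library for classical class I, class II and the 8 nonclassical genes with the highest mean count. Outside H2 they are B2m, Tap1, Nlrc5, Ciita and Cd74, plus up to 3 genes per list with an unadjusted p under 0.05 and groups that do not overlap. Ranges of other H2 genes, H2-K2, H2-Ke6, Canx and single markers were chosen after their values were seen.

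Alternatives were DESeq2 1.42.0 (independent filtering at 0.1), limma-voom 3.58.1, 3 normalizations, 2 filters, no robust estimation, a replicate block and each library left out. DESeq2 without single libraries, and sums without both libraries that stood apart, were added after seeing the data. Fits were tested on simulated data. Between replicates the chi-square divided by its degrees of freedom was at least 21.6, beyond counting noise, so no pair was taken for copies of 1 library. A floor of 3 counts covers counting error alone, as reads lack molecular identifiers. Positions, exonic lengths and shared 100-base windows came from GENCODE M39, and promoter windows from RefSeq (GRCm38.p6). The promoter motifs were chosen after the counts had been analysed, and the κB-like motif was shortened once after a first search.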

Additional observations from a re-analysis of the deposited data

How the results depend on the processing

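The count of 0 H2 genes with an adjusted p under 0.05 held in the 9 alternatives that kept all libraries and in the 6 edgeR fits without 1 library, where the lowest adjusted p of an H2 gene was 0.109. DESeq2 without 1 library gave 0 to 3, the 3 being H2-Aa, H2-Ab1 and H2-Eb1 without WT Tconv replicate 3. H2 genes with an unadjusted edgeR p under 0.05 numbered 2, against 14.5% of all genes, and 1 to 5 without single libraries. Without WT Tconv replicate 3 they numbered 5, against 11.2% of all genes. Without HP1α KO Tconv replicate 2 they numbered 1, against 16.4%. In the pathway lists 6 of 52 tested genes had such a p, against 14.5% of all genes, and 2 to 10 had it without single libraries. Shares of all genes in the remaining fits without 1 library are not given here, so the counts of those fits are not compared with them. Fewer samples were tested in every fit without 1 library, and the cause was otherwise not tested.

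The sign of the log2 fold change held in all of these settings for 9 of the 27 H2 genes, H2-DMa, H2-Oa, H2-Ob, H2-T23, H2-T24, H2-M3, H2-Q6, H2-Bl and H2-K2, and changed in at least 1 setting for 18. With total counts only, it became 0.0203 for H2-Aa, 0.0334 for H2-DMb2, 0.0226 for H2-Q5, 0.0325 for H2-T10, 0.0258 for H2-Q1 and 0.014 for Cd74. With upper quartile factors it became 0.0149 for H2-Aa, 0.0186 for H2-DMb2, 0.0055 for H2-Q5, 0.0145 for H2-T10 and 0.0097 for H2-Q1. With limma-voom it became 0.31 for H2-Aa and -0.077 for H2-Q2. The cause of these changes was not tested.

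Without single libraries the log2 fold change ranged from -0.013 to 0.17 for H2-K1, -0.014 to 0.18 for H2-D1, -0.082 to 0.15 for H2-Q4, -0.037 to 0.18 for H2-Q7, -0.049 to 0.082 for H2-T22, -0.12 to 0.10 for H2-Q5, -0.085 to 0.058 for H2-T10, -0.10 to 0.13 for H2-Q1, -0.75 to 0.56 for H2-Q2, -0.50 to 0.27 for H2-Q10, -0.088 to 0.15 for H2-T-ps and -0.015 to 0.12 for H2-Ke6. For class II it ranged from -0.40 to 1.05 for H2-Aa, -0.22 to 0.86 for H2-Ab1, -0.17 to 0.61 for H2-Eb1, -2.04 to 0.18 for H2-Ea, -0.24 to 0.24 for H2-DMb1, -0.17 to 0.25 for H2-DMb2 and -0.25 to 0.19 for Cd74. In DESeq2 the range was -0.41 to 1.05 for H2-Aa, -0.24 to 0.85 for H2-Ab1 and -0.18 to 0.61 for H2-Eb1.

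The replicate numbers are not stated to pair the samples. Deviations of same-numbered libraries correlated at -0.042, 0.182 and 0.117 across genes, and not every library correlated best with its own number. With the replicate number as a block, 1 H2 gene had an unadjusted edgeR p under 0.05 and 0 an adjusted one. The share of all genes in that fit is not given here. With the block the log2 fold change became 0.38 for H2-Aa and -0.083 for H2-Q2.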
